A study of Mus musculus with 16 samples.

Results

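The genes described here are the 8 that carry glucose from the blood to lactose in the milk-producing cell: Slc2a1, Hk1, Hk2, Pgm2, Ugp2, Galt, Slc35a2 and B4galt1. They were chosen by name from known biochemistry, but with earlier results of these data known. Each had 1 row among the 24187 rows of the deposited expression table. RNA was sequenced from mammary gland tissue at day 13 of pregnancy in 3 Socs2-Δs libraries and 4 wild-type libraries. Both groups are labelled as strain C57BL/6. The Socs2-Δs mice were made by CRISPR/Cas9 genome editing, and the wild-type mice were bought from Charles River, so genotype and breeding source cannot be told apart. The genotype tag of the Socs2-Δs RNA samples reads wild type, in conflict with their titles, which were followed. The labels give neither the animals' age nor whether each library is a separate animal, so a p-value sets the difference against the variation among libraries, part or all of which may be technical.

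Lactose is the main sugar of milk, and it draws water into the alveolar lumen, so its synthesis sets much of the milk volume. Glucose enters the secretory cell through facilitative transporters, chiefly GLUT1, and is phosphorylated by hexokinases. Phosphoglucomutase and a pyrophosphorylase then turn it into UDP-glucose, which is converted to UDP-galactose in the cytosol and carried into the Golgi. There the galactosyltransferase B4GALT1, paired with alpha-lactalbumin, joins galactose to glucose. B4GALT1 also galactosylates glycoproteins in most cells without alpha-lactalbumin, and its synthesis is known to increase in the gland during pregnancy and lactation.

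The series is about STAT5, the transcription factor that prolactin activates in the mammary epithelium, so the promoters of the 8 genes were searched for its core motif. RefSeq windows of the assembly GRCm38.p6, from 250 bases before each annotated start to 50 bases after it, were found for 8 of the 8 genes, 11 windows in all. The motifs searched on both strands were GAS, the STAT element, TTCNNNGAA; the GC box GGGCGG, bound by SP1; and the E box CACGTG. Windows of B4galt1, which showed the largest difference between the groups, and of Slc2a1, which had the next smallest p, are printed 5′ to 3′ with GAS and GC box matches in capitals. The B4galt1 window is chr4:40853935-40854234, minus strand, and the Slc2a1 window is chr4:119108495-119108794, plus strand.
B4galt1: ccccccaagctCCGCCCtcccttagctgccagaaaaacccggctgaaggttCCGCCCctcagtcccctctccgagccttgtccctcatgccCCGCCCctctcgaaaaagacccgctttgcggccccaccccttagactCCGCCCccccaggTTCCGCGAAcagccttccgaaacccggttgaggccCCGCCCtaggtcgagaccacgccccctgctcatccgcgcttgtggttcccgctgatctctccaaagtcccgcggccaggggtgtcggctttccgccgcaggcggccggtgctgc
Slc2a1: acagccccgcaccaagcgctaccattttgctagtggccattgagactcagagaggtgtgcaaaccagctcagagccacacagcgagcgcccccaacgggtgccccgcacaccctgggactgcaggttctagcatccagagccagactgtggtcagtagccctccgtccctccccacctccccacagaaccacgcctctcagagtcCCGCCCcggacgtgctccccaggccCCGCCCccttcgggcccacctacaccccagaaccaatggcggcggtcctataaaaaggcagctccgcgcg
The B4galt1 window held 1 GAS match, whose first base lies at position -99 from the start, and 5 GC boxes, none of which overlaps it. The Slc2a1 window held 2 GC boxes and 0 GAS matches. The window of Lalba, the alpha-lactalbumin gene, was also searched and held 0 GAS matches and 0 GC boxes. Lalba had a log2 difference of 3.17, beside 1.68 for B4galt1. GAS was found in 1 of the 11 windows of the 8 genes and in 8.3% of all 32851 windows, and the GC box in 8 of the 11 windows and in 35.7% of all. Bases G and C made up 51.3 to 76% of the 11 windows, beside a median of 52.7% for all windows. The shares were not adjusted for this base composition. The E box was found in 1 window, that of Galt, and in 7.15% of all. A match is a string of letters and was not tested as a binding site, and the mm9 build of the submitters' notes differs from that of the windows.

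Depth, recovered from the steps between low values, was 21.3 to 24.5 M (mega) reads per library. The 8 genes had between 336 reads, for Galt in wild-type replicate 4, and 17368 reads, for B4galt1 in Socs2-Δs replicate 3. In the wild-type group, replicates 3 and 4 differed from the rest. Across genes, log2(FPKM + 1) of wild-type replicates 1 and 2 correlated at 0.980 with one another, but at 0.879 to 0.910 with replicate 3 or 4. Summed over 6 liver markers, FPKM were 5.58 to 9.58 in the Socs2-Δs libraries, 7.45 to 7.92 in wild-type replicates 1 and 2, and 153 and 1498 in wild-type replicates 3 and 4; of these markers Ttr was listed at 0 in at least 1 library. Salivary gland marker sums were 28.8 to 36.9 FPKM in the Socs2-Δs libraries and 64.8 to 83.8 in wild-type replicates 1 and 2. They were 325 and 214 in wild-type replicates 3 and 4. Of these markers Bpifa2 and Muc19 were listed at 0 in at least 1 library. Bpifa2 measured 0.0895 to 0.800 FPKM in the Socs2-Δs libraries, 0 in wild-type replicates 1 and 2, and 23.0 and 6.43 in wild-type replicates 3 and 4. Neat1, a nuclear noncoding RNA, measured 496 to 586 FPKM in the Socs2-Δs libraries, 442 to 464 in wild-type replicates 1 and 2, and 11.4 and 14.8 in wild-type replicates 3 and 4. Results are therefore given with and without wild-type replicates 3 and 4. Socs2 itself measured 17.1, 13.9 and 16.0 FPKM in the Socs2-Δs libraries, against 25.6, 22.1, 24.8 and 16.1 FPKM in the wild-type libraries, and the groups overlapped through wild-type replicate 4.

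The mammary identity of the samples was checked on markers. All 8 pan-luminal epithelial markers were detected in every library, with summed FPKM of 1366 to 2092 in the Socs2-Δs libraries, 1164 to 1396 in wild-type replicates 1 and 2, and 1703 and 764 in wild-type replicates 3 and 4. Summed over 6 alveolar secretory markers, such as the caseins and Wap, FPKM were 58940 to 75312, 8860 to 13571, and 31817 and 3415 in the same order. Adipocyte markers (8 of 8 detected in every library) summed to 3407 to 6608 FPKM in the Socs2-Δs libraries, 10446 to 12438 in wild-type replicates 1 and 2, and 13383 and 22833 in wild-type replicates 3 and 4. In whole tissue, a change in the number of cells of a type and a change in RNA per cell cannot be told apart.

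Of the 8 genes, B4galt1 stood at a mean 3.24 times higher in the Socs2-Δs glands, and the genes that make UDP-glucose did not share that difference. Slc2a1 was 1.49 times as high, Hk1 1.34 times and Slc35a2 1.30 times, while Pgm2 and Ugp2 had lower means, at ratios of 0.686 and 0.641. All 8 passed the filter of a mean of at least 1 FPKM. With all 7 libraries, 0 of the 8 were called by limma at an adjusted p under 0.05, where 0.0448% of the 13392 genes tested were called. At an unadjusted p under 0.05, 2 were higher (B4galt1 and Slc2a1) and 0 lower, against 9.12% and 8.98% of all genes. For 4 of the 8 genes (Slc2a1, Hk1, Slc35a2 and B4galt1) every Socs2-Δs library lay above every wild-type library, where 12.5% of all genes tested did so and 22.5% were free of overlap in either direction. Leaving out wild-type replicates 3 and 4, B4galt1 rose and the other 7 were not called, where 1.42% of 13276 genes were called higher, 0.716% lower and 2.14% in either direction. Against wild-type replicates 1 and 2 the same 4 genes lay above without overlap and 0 lay below, where 22% of all genes lay above, 18.2% below and 40.2% in either direction; at an unadjusted p under 0.05, 2 were higher and 0 lower, where 9.45% and 10.7% of all genes were. The median log2 difference of the 8 genes was 0.31 beside -0.00 for all genes with 7 libraries, and 0.10 beside 0.03 without wild-type replicates 3 and 4.

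**Figure D1:**
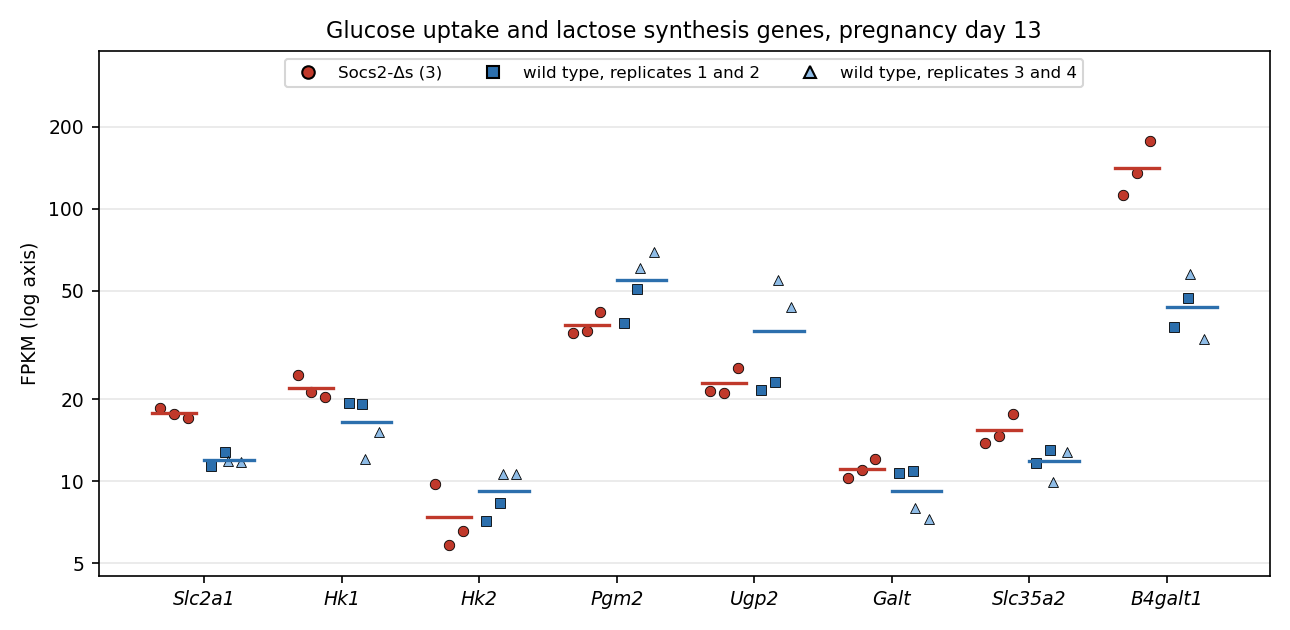
FPKM per library on a log axis for the 8 genes, with the Socs2-Δs libraries to the left of the wild-type libraries and a line at each group's mean. The 3 Socs2-Δs libraries sit between 112 and 177 FPKM for B4galt1, above the 4 wild-type libraries at 33.3 to 57.8 FPKM, while for Ugp2 wild-type replicates 3 and 4 lie above the other 5 libraries.

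Slc2a1 encodes GLUT1, the facilitative transporter that brings glucose into most cells and the main one of the lactating gland. It measured 18.6, 17.6 and 17.1 FPKM in the Socs2-Δs libraries, against 11.4, 12.8, 11.9 and 11.7 FPKM in the wild-type libraries. The lowest Socs2-Δs library lay above the highest wild-type library, and wild-type replicates 3 and 4 lay within the range of replicates 1 and 2. The log2 difference was 0.54 (SE 0.13, 95% interval 0.24 to 0.83) with a limma adjusted p of 0.154, and the exact two-sided permutation test gave 0.0286, the smallest p that 3 against 4 libraries allow. Without wild-type replicates 3 and 4 the difference was 0.52 (limma adjusted p = 0.0668).

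Among the 11 other glucose transporters listed, 9 were tested and 0 were called with all 7 libraries, with a median log2 difference of -0.13 that was -0.0018 without wild-type replicates 3 and 4. Slc2a4 encodes GLUT4, the insulin-responsive transporter of fat and muscle. It measured 21.3, 17.6 and 17.7 FPKM in the Socs2-Δs libraries, against 31.6, 28.8, 28.7 and 53.8 FPKM in the wild-type libraries. The groups did not overlap, and the difference of -0.84 did not pass (limma adjusted p = 0.180). Adipocyte markers were lower in the same libraries, as given above, and their part in this difference was not tested. Slc5a1, the sodium-coupled transporter SGLT1, measured 13.7, 11.9 and 15.0 FPKM in the Socs2-Δs libraries, against 5.95, 7.26, 11.0 and 3.15 FPKM in the wild-type libraries (log2 difference 0.98, limma adjusted p = 0.212). Without wild-type replicates 3 and 4 Slc5a1 rose (0.93, limma adjusted p = 0.0391), alone among the 8 transporters tested there, where 1.42% of all genes rose. With all 7 libraries, an added term for wild-type replicates 3 and 4 gives the same difference by construction. Its limma adjusted p was 0.407. Slc2a9, a urate transporter of the same family, averaged 11.7 ± 2.80 FPKM in Socs2-Δs glands and 6.17 ± 1.53 FPKM in wild-type glands (SD, n = 3 and 4), and Slc2a13, a proton-coupled inositol transporter, averaged 0.741 ± 0.174 and 2.18 ± 1.68 FPKM in the same order, neither passing.

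The share of GLUT1 among the transporter transcripts was higher in the Socs2-Δs glands. Slc2a1 made up 24.2, 23.9 and 21.4% of the summed FPKM of the 12 transporters in the Socs2-Δs libraries, against 15.5, 17.9, 15.6 and 12.01% in the wild-type libraries. Slc2a4 made up 27.7, 23.9 and 22.2% in the Socs2-Δs libraries, against 43.0, 40.1, 37.8 and 55.1% in the wild-type libraries. Neither share overlapped between the groups. The sum includes Slc2a4, so a lower Slc2a4 by itself raises the share of Slc2a1. How often such shares are free of overlap for other genes was not tested. Slc2a1 and Slc2a4 stood near one another in the Socs2-Δs glands, and Slc2a4 was the more abundant in every wild-type library.

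Hk1 and Hk2 encode the hexokinases that trap glucose as glucose 6-phosphate. Hk1 is the widely expressed form, and Hk2 is the insulin-responsive form of muscle and fat, also expressed in proliferating cells. Hk1 measured 24.5, 21.2 and 20.3 FPKM in the Socs2-Δs libraries, against 19.4, 19.2, 12.1 and 15.1 FPKM in the wild-type libraries. The groups did not overlap, but the nearest libraries differed by less than the Socs2-Δs libraries did among themselves, and most of the gap came from wild-type replicates 3 and 4. The log2 difference was 0.42 (SE 0.20, 95% interval -0.04 to 0.87, limma adjusted p = 0.297; exact permutation p = 0.0857). With replicates 1 and 2 as the only wild type it was 0.17 (95% interval -0.12 to 0.46, limma adjusted p = 0.472).

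Hk2 measured 9.72, 5.82 and 6.54 FPKM in the Socs2-Δs libraries, against 7.14, 8.32, 10.6 and 10.6 FPKM in the wild-type libraries. Socs2-Δs replicate 1 lay within the wild-type range and the other 2 below it. The difference of -0.30 (SE 0.21, 95% interval -0.79 to 0.20) did not pass (limma adjusted p = 0.444). Hk2 was 28.4, 21.5 and 24.4% of the sum of Hk1 and Hk2 in the Socs2-Δs libraries, against 26.9, 30.2, 46.8 and 41.3% in the wild-type libraries. Hk1 was thus the more abundant hexokinase per length in all 7 libraries, and the balance moved towards Hk2 in wild-type replicates 3 and 4. Summed over 7 skeletal muscle markers, FPKM were 137, 108 and 52.3 in the Socs2-Δs libraries and 191, 46.1, 529 and 123 in the wild-type libraries; the part of muscle, fat or liver RNA in Hk2 was not tested. Hk3, another hexokinase, averaged 1.57 ± 0.388 FPKM in Socs2-Δs glands and 2.35 ± 0.501 FPKM in wild-type glands (SD, n = 3 and 4; limma adjusted p = 0.328), and Hkdc1 stayed under the filter.

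Phosphoglucomutase converts glucose 6-phosphate to glucose 1-phosphate. The row named Pgm2 carries Entrez 72157, which RefSeq now calls Pgm1, the mouse counterpart of human PGM1, while the row named Pgm1 carries Entrez 66681, now called Pgm2. The names of the deposited table are kept here. Pgm2 measured 35.1, 35.5 and 41.8 FPKM in the Socs2-Δs libraries, against 37.9, 50.5, 60.5 and 69.3 FPKM in the wild-type libraries. The groups overlapped, since Socs2-Δs replicate 3 lay above wild-type replicate 1, and wild-type replicates 3 and 4 were the highest of all. Its log2 difference was -0.50 (SE 0.23, 95% interval -1.02 to 0.02, limma adjusted p = 0.286; exact permutation p = 0.0857). Without wild-type replicates 3 and 4 it was -0.23 (95% interval -0.63 to 0.17, limma adjusted p = 0.501).

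The other 4 phosphoglucomutase genes had a median log2 difference of 0.11, which was 0.18 without wild-type replicates 3 and 4, and 0 were called. Pgm1 measured 9.09, 10.3 and 10.7 FPKM in the Socs2-Δs libraries, against 6.13, 7.82, 10.1 and 6.08 FPKM in the wild-type libraries (log2 difference 0.40, limma adjusted p = 0.304). Pgm2 held 79.4, 77.5 and 79.6% of the sum of Pgm1 and Pgm2 in the Socs2-Δs libraries, against 86.1, 86.6, 85.7 and 91.9% in the wild-type libraries, with no overlap. Pgm3, which makes N-acetylglucosamine 1-phosphate, Pgm2l1 and Pgm5 differed by -0.11, 0.21 and 0.00, each overlapping between the groups.

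Ugp2 encodes UDP-glucose pyrophosphorylase, which joins glucose 1-phosphate to UTP. It measured 21.4, 21.1 and 26.1 FPKM in the Socs2-Δs libraries, against 21.6, 23.2, 54.5 and 43.5 FPKM in the wild-type libraries. The Socs2-Δs libraries surrounded wild-type replicates 1 and 2, and the difference of the means came from wild-type replicates 3 and 4, whose mean was 2.19 times that of replicates 1 and 2. The log2 difference was -0.52 (SE 0.33, 95% interval -1.29 to 0.25, limma adjusted p = 0.397) with all 7 libraries and turned to 0.03 (95% interval -0.29 to 0.35, limma adjusted p = 0.944) without those 2. Liver, which makes glycogen from UDP-glucose, had its marker sum raised in the same 2 libraries, as given above. The part of liver RNA in Ugp2 was not tested.

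Galt encodes galactose-1-phosphate uridylyltransferase, which exchanges UDP-glucose and galactose 1-phosphate for UDP-galactose and glucose 1-phosphate in the Leloir pathway. It measured 10.3, 11.0 and 12.1 FPKM in the Socs2-Δs libraries, against 10.7, 10.9, 7.97 and 7.29 FPKM in the wild-type libraries. Wild-type replicates 1 and 2 lay inside the Socs2-Δs range, and replicates 3 and 4 below it. Its log2 difference was 0.26 (SE 0.18, limma adjusted p = 0.418) with 7 libraries and 0.04 (95% interval -0.23 to 0.30, limma adjusted p = 0.897) without wild-type replicates 3 and 4. The ratio of Ugp2 to Galt was 2.08, 1.93 and 2.16 in the Socs2-Δs libraries, against 2.02, 2.13, 6.84 and 5.97 in the wild-type libraries.

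Of 9 other genes of the Leloir pathway and of UDP-glucose use, 0 were called, with a median log2 difference of -0.11 that turned to 0.017 without wild-type replicates 3 and 4. Ugdh, which oxidises UDP-glucose to UDP-glucuronate, measured 17.3, 16.1 and 17.9 FPKM in the Socs2-Δs libraries, against 21.6, 28.2, 38.7 and 36.7 FPKM in the wild-type libraries, with no overlap (log2 difference -0.80, limma adjusted p = 0.167). Uxs1, the next enzyme on that branch, measured 8.15, 7.97 and 7.51 FPKM in the Socs2-Δs libraries, against 9.91, 11.0, 15.0 and 15.8 FPKM in the wild-type libraries (-0.63, limma adjusted p = 0.186). These 2 enzymes feed glycosaminoglycan synthesis, and fibroblast markers (7 of 7 detected in every library) summed to 1455 to 2066 FPKM in the Socs2-Δs libraries, 2377 and 2613 in wild-type replicates 1 and 2, and 2709 and 3054 in wild-type replicates 3 and 4; their part in the difference was not tested. Galm, the aldose mutarotase, and Uggt1, which glucosylates misfolded glycoproteins, overlapped between the groups, with differences of -0.30 and 0.17. Among 8 genes of glycogen turnover, 0 were called and 7 had a lower mean, with a median of -0.53 that was -0.14 without wild-type replicates 3 and 4. Pygl, the liver glycogen phosphorylase, measured 29.8, 17.1 and 29.3 FPKM in the Socs2-Δs libraries, against 26.3, 36.9, 77.4 and 59.0 FPKM in the wild-type libraries. Gyg (glycogenin), Gbe1 (the branching enzyme) and Ppp1r3c (a glycogen-targeting phosphatase subunit) likewise had their highest values in wild-type replicates 3 and 4, and their differences of -0.74, -0.77 and -0.98 did not pass.

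**Figure D2:**
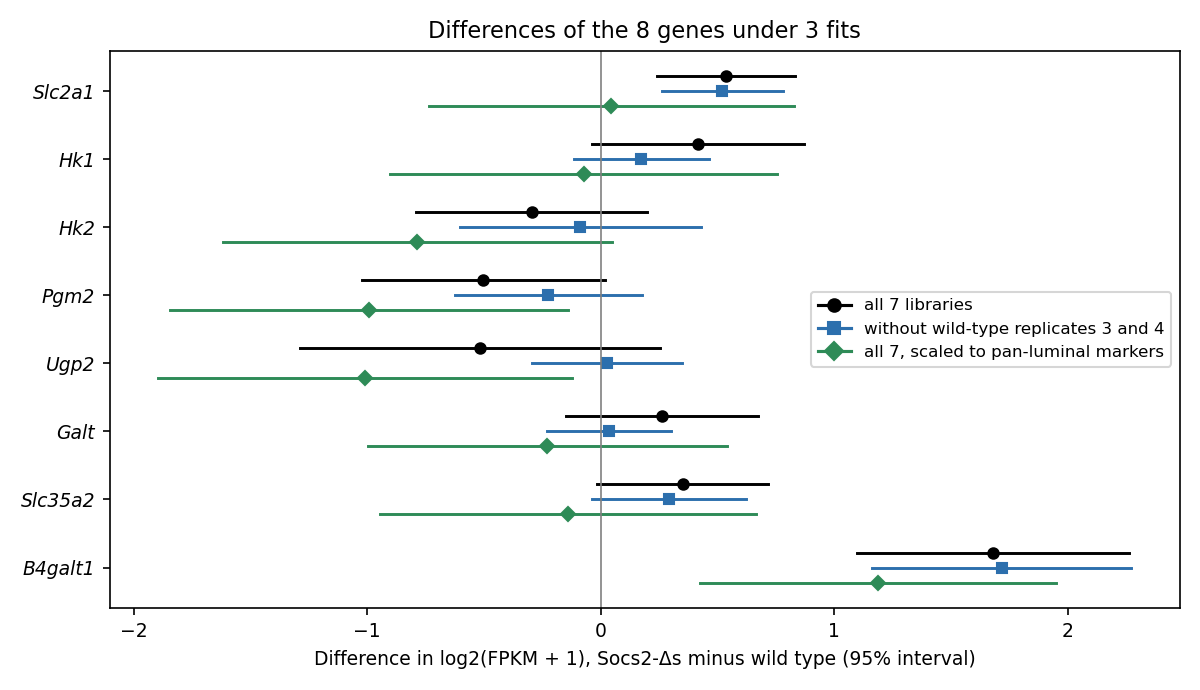
Difference in log2(FPKM + 1), Socs2-Δs minus wild type, with the 95% limma interval, for the 8 genes under 3 fits, with each gene on a row. The interval of B4galt1 stays above 0 in all 3 fits, that of Slc2a1 in the first 2, and the value for Ugp2 moves from -0.52 to 0.03 when wild-type replicates 3 and 4 are left out.

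Slc35a2 encodes the Golgi carrier that exchanges UDP-galactose for UMP. It measured 13.8, 14.7 and 17.6 FPKM in the Socs2-Δs libraries, against 11.6, 13.0, 9.89 and 12.8 FPKM in the wild-type libraries. The groups did not overlap, and the gap between the nearest libraries was smaller than the spread within either group. The log2 difference was 0.35 (SE 0.16, 95% interval -0.02 to 0.72, limma adjusted p = 0.286; exact permutation p = 0.0286, the smallest possible). With replicates 1 and 2 as the only wild type it was 0.29 (limma adjusted p = 0.297). Of 10 other nucleotide sugar carriers, 0 were called and 8 had a higher mean log2(FPKM + 1). Their median difference was 0.12, and 0.25 without wild-type replicates 3 and 4. Slc35c1, the Golgi GDP-fucose carrier, measured 16.4, 15.4 and 16.9 FPKM in the Socs2-Δs libraries, against 10.2, 11.6, 10.4 and 9.09 FPKM in the wild-type libraries (log2 difference 0.61, limma adjusted p = 0.144). Slc35c2 and Slc35b4, a carrier of UDP-xylose, also did not overlap, with differences of 0.43 and -0.39, while Slc35d1 overlapped (0.28).

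B4galt1, the catalytic subunit of lactose synthase, measured 112, 135 and 177 FPKM in the Socs2-Δs libraries, against 36.9, 46.8, 57.8 and 33.3 FPKM in the wild-type libraries. The lowest Socs2-Δs library was well above the highest wild-type library, replicate 3, and wild-type replicates 3 and 4 fell to either side of replicates 1 and 2. The means were 141 ± 33.1 and 43.7 ± 11.0 FPKM (SD, n = 3 and 4), and the log2 difference was 1.68 (SE 0.25, 95% interval 1.10 to 2.26). It ranked 26th by p among all genes tested and did not pass (limma adjusted p = 0.0847; exact permutation p = 0.0286, the smallest possible). Without wild-type replicates 3 and 4 the difference was 1.72 (95% interval 1.16 to 2.27) and B4galt1 rose (limma adjusted p = 0.0331). With all 7 libraries, an added term for those 2 gives the same difference by construction, and its limma adjusted p was 0.135. B4galt1 was also called with all 7 libraries under quantile normalization (1.89, limma adjusted p = 0.0443).

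Lalba encodes alpha-lactalbumin, the partner that turns B4GALT1 to glucose as acceptor. It measured 53.1, 77.8 and 124 FPKM in the Socs2-Δs libraries, against 11.99, 11.1, 10.2 and 2.81 FPKM in the wild-type libraries. The log2 difference was 3.17 (SE 0.47, limma adjusted p = 0.0847) and 2.70 without wild-type replicates 3 and 4, where Lalba rose (limma adjusted p = 0.0293). B4galt1 was 2.11, 1.73 and 1.43 times as abundant as Lalba in the Socs2-Δs libraries, against 3.08, 4.23, 5.67 and 11.8 times in the wild-type libraries. The libraries with more B4galt1 among the Socs2-Δs ones thus had the lower ratio, as Lalba differed between them by more. In wild-type replicate 4, which had the lowest B4galt1 and Lalba, the alveolar secretory and pan-luminal sums were also the lowest.

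B4galt1 was the one gene of its family with a higher mean and no overlap. Of the other 6 beta-1,4-galactosyltransferases, 0 were called, 4 were lower without overlap, and 2, B4galt3 and B4galt7, overlapped, where 10% of all genes tested were lower without overlap. B4galt2 measured 4.38, 3.17 and 3.54 FPKM in the Socs2-Δs libraries, against 6.00, 6.29, 6.81 and 7.72 FPKM in the wild-type libraries (log2 difference -0.72, SE 0.16, limma adjusted p = 0.135). B4galt4 (-0.41), B4galt5 (-0.42) and B4galt6 (-0.57), the last 2 of which make lactosylceramide, had limma adjusted p from 0.198 to 0.223. B4galt1 held 70.6, 75.0 and 78.3% of the summed FPKM of the 7 family members in the Socs2-Δs libraries, against 42.3, 46.1, 58.4 and 43.4% in the wild-type libraries. Its mean share was 74.6 ± 3.86% in Socs2-Δs glands and 47.5 ± 7.39% in wild-type glands (SD, n = 3 and 4), and the groups did not overlap. The ratio of B4galt1 to the UDP-galactose carrier Slc35a2 was 8.10, 9.19 and 10.1 in the Socs2-Δs libraries, against 3.18, 3.60, 5.84 and 2.59 in the wild-type libraries.

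**Figure D3:**
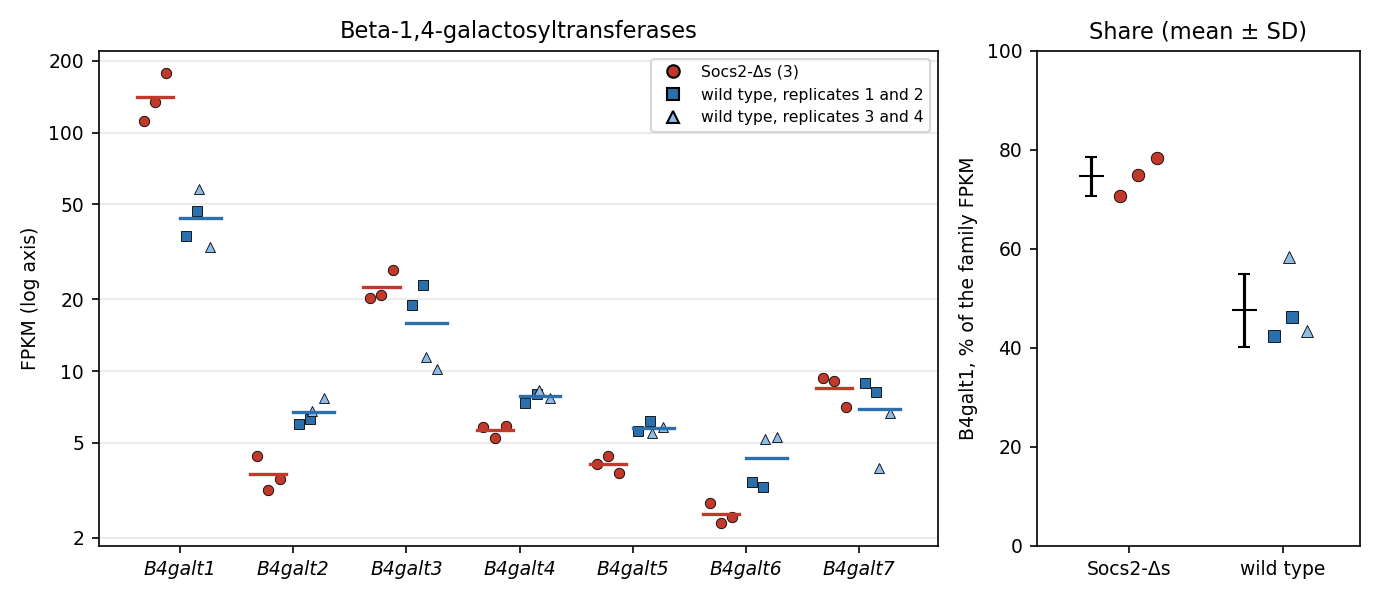
Left, FPKM per library on a log axis for the 7 beta-1,4-galactosyltransferase genes, Socs2-Δs libraries left of wild-type libraries, with a line at each mean. Right, the share of B4galt1 in the family's summed FPKM per library with mean ± SD, which was 70.6 to 78.3% in the Socs2-Δs libraries and 42.3 to 58.4% in the wild-type libraries.

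Scaling each library to its 8 pan-luminal markers placed the genes relative to the luminal epithelium as a whole, not to its alveolar secretory part. This scaling moved every difference down by the same amount, and the median of all genes tested to -0.49, so it changed signs and intervals but not the order of the genes. B4galt1 then differed by 1.19 (95% interval 0.43 to 1.95, limma adjusted p = 0.142) and Lalba by 2.68, past the threshold (limma adjusted p = 0.00332). Alveolar secretory marker sums were also higher in the Socs2-Δs libraries, as given above, and their part in both differences was not tested. Slc2a1 came to 0.05 (95% interval -0.74 to 0.83), and Hk1, Slc35a2 and Galt changed sign, to -0.07, -0.14 and -0.23. All 4 lay above the median of all genes, while Hk2 (-0.79), Pgm2 (-0.99) and Ugp2 (-1.01) lay below it.

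The branches that use glucose for other ends were compared from lists. Of 16 tested genes of glycolysis and lactate export, 0 were called. With 7 libraries 5 had a higher and 11 a lower difference, with a median of -0.17, and without wild-type replicates 3 and 4 the tally turned to 11 higher and 5 lower, with a median of 0.096. Pfkl, the liver-type phosphofructokinase, measured 61.7, 59.2 and 69.1 FPKM in the Socs2-Δs libraries, against 34.4, 46.3, 37.1 and 32.7 FPKM in the wild-type libraries (log2 difference 0.75, SE 0.18, limma adjusted p = 0.153). Aldoc, an aldolase, measured 69.6, 74.1 and 98.7 FPKM in the Socs2-Δs libraries, against 37.3, 49.7, 62.9 and 23.4 FPKM in the wild-type libraries (0.95, limma adjusted p = 0.221). Both were free of overlap. Tpi1 was lower without overlap (-0.77), and Aldoa overlapped (-0.65), both with their highest values in wild-type replicates 3 and 4. Tpi1, Aldoa and several other glycolytic genes have processed pseudogenes and may share reads with them.

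Of 8 genes of the pentose phosphate pathway, a source of NADPH for milk fat, 0 were called and 7 had a lower mean. Their median difference was -0.32, and -0.01 without wild-type replicates 3 and 4. H6pd, the dehydrogenase of the endoplasmic reticulum, measured 11.3, 10.3 and 7.85 FPKM in the Socs2-Δs libraries, against 24.7, 13.7, 12.5 and 35.96 FPKM in the wild-type libraries. G6pdx, the first enzyme of the cytosolic pathway, Pgd and Rpe overlapped between the groups (-0.79, -0.42 and -0.49). Among 6 regulators that respond to glucose, 0 were called. Mlxip measured 19.5, 16.3 and 15.9 FPKM in the Socs2-Δs libraries, against 12.5, 11.9, 8.67 and 7.75 FPKM in the wild-type libraries (0.72, limma adjusted p = 0.168). Hif1a (-0.35), Arrdc4 (0.19) and Txnip (-0.11), which restrains glucose uptake, overlapped. Mlxipl, the carbohydrate response factor ChREBP, measured 11.4, 9.68 and 10.5 FPKM in the Socs2-Δs libraries, against 19.6, 18.01, 4.35 and 5.21 FPKM in the wild-type libraries. The Socs2-Δs libraries lay between the 2 pairs of wild-type libraries, so Mlxipl fell without wild-type replicates 3 and 4 (-0.78, limma adjusted p = 0.0361) but differed by 0.11 with all 7; it was named after its values were seen. Over all 83 listed genes, 78 were tested and 0 called with 7 libraries, with a median of -0.11. Without wild-type replicates 3 and 4, 2 of 77 rose (Slc5a1 and Lalba) and 1 fell (Mlxipl), and the median was 0.03. Of all genes tested there, 1.42% rose and 0.716% fell.

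**Figure D4:**
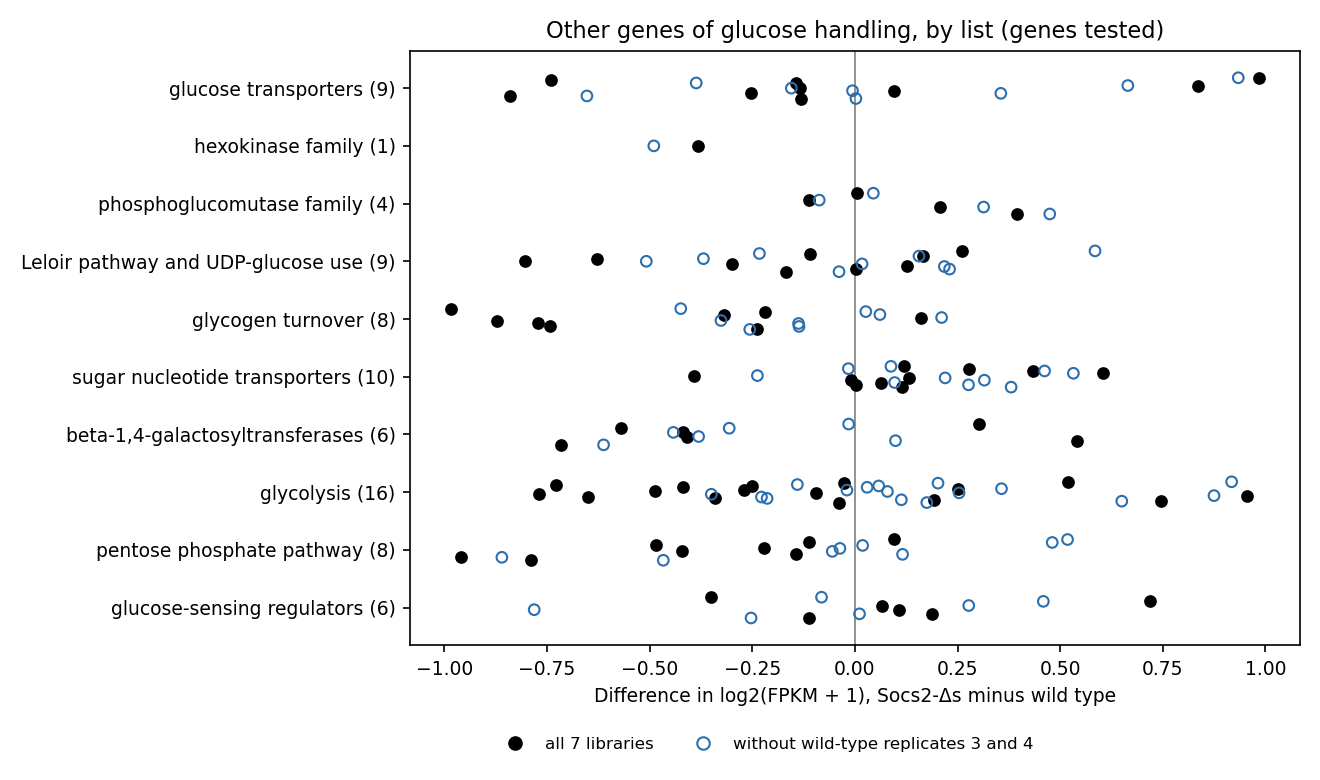
Difference in log2(FPKM + 1), Socs2-Δs minus wild type, for each tested gene of 10 lists, with all 7 libraries (filled) and without wild-type replicates 3 and 4 (open); Lalba, at 3.17 and 2.70, lies beyond the axis and is left out. Glycogen and pentose phosphate genes lie mostly below 0 with 7 libraries, with medians of -0.53 and -0.32, and closer to 0 without the 2 libraries.

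The order of levels, per gene length, differed between the groups at its top. In the Socs2-Δs glands B4galt1 came first (112 to 177 FPKM), then Pgm2 (35.1 to 41.8), Ugp2 (21.1 to 26.1), Hk1 (20.3 to 24.5), Slc2a1 (17.1 to 18.6), Slc35a2 (13.8 to 17.6), Galt (10.3 to 12.1) and Hk2 (5.82 to 9.72). The neighbours Ugp2 and Hk1, and Slc2a1 and Slc35a2, overlapped in range. In the wild-type glands Pgm2 (37.9 to 69.3) came before B4galt1 (33.3 to 57.8) and Ugp2 (21.6 to 54.5), and these 3 overlapped in range. Below them Hk1 (12.1 to 19.4), Slc2a1 (11.4 to 12.8), Slc35a2 (9.89 to 13.0), Galt (7.29 to 10.9) and Hk2 (7.14 to 10.6) each overlapped the next. B4galt1 made up 45.6, 51.5 and 55.6% of the summed FPKM of the 8 genes in the Socs2-Δs libraries, against 23.5, 25.3, 25.7 and 16.3% in the wild-type libraries.

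The 8 genes did not vary together over the 7 libraries. Pearson correlations of log2(FPKM + 1), given as a description over libraries that share the group difference, were 0.922 between Slc2a1 and B4galt1 and 0.872 between Pgm2 and Ugp2, but -0.938 between Hk1 and Ugp2 and -0.856 between Ugp2 and Galt. Over the 5 libraries without wild-type replicates 3 and 4 these became 0.927, 0.555, -0.359 and 0.878, so the negative pairing of Ugp2 with Galt lay in those 2 libraries. The profiles most like B4galt1 over 7 libraries were those of the fucosyltransferase gene Fut4 (r = 0.997), the kinase gene Nuak2 (0.995) and Apln (0.992). Those most like Slc2a1 were Oit1 (0.987), Homez (0.979) and Atp6v0a2, a subunit of the vacuolar proton pump (0.977). Each of these 6 had an r of at least 0.979 over the 5 libraries. For Slc35a2 the nearest were Tor1b, R3hdm4 and Napg (0.983 to 0.979), and for Hk2 they were Scd3, Gpd2 and Fbn1 (0.971 to 0.967). Hk1 was nearest to Zzef1, Supt6 and Ubr4 (0.996 to 0.994), Pgm2 to Tmem97, Lzic and Echs1 (0.995 to 0.993), Ugp2 to Paip2, Ccdc127 and Bzw1 (0.998 to 0.997), and Galt to Snord99, Pwwp2a and Hoxc11 (0.995 to 0.994).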

How the data were processed

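Poly(A) RNA of 7 mammary gland samples was made into TruSeq libraries, per the labels' protocols. Tools listed, with no version, by the submitters' processing notes are STAR, Bowtie2, CASAVA and DESeq2, and the build is mm9; which made the table, and with what annotation, is not stated. The authors deposited FPKM, which are scaled for gene length and depth. After dividing by the relative worth of 1 read per library, a common step that made a gene's values whole within 0.02 of a read was found for 21044 of 21044 rows above 0. Summed FPKM ranged from 421374 to 771273, and the basis of the scaling is not stated. limma 3.58.1 in R 4.3.3 (trended empirical Bayes) was fitted to log2(FPKM + 1), a scale that shrinks changes of weakly expressed genes. It covered the 13392 genes averaging 1 FPKM or more over the libraries, with Benjamini-Hochberg adjustment over all of them and a threshold of 0.05. The fit was tested on simulated data. Differences are Socs2-Δs minus wild type.

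The 8 genes, 11 lists of 83 further genes and 11 marker lists (68 of 69 genes found by symbol) were chosen with earlier results of these data known. Named list genes are the up to 4 of smallest p per list. For each of the 8 genes, the 3 of highest correlation are named, without predicted genes. Leaving out libraries, scalings, a pseudocount of 0.1, no filter and a replicate block were tried. Another 9 samples, of ChIP-seq or DNase-seq, were not analysed here. Use of strand is not stated, so reads of a gene and an antisense or overlapping partner may be mixed. A listed gene is not reported here.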

Additional observations from a re-analysis of the deposited data

Results flagged for a closer look

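In 3 of 47 genes checked, 1 wild-type library lay far from the other 3, by Dixon's test at the 95% level; chance flags about 1 gene in 20. All 3 concern wild-type replicate 4. Slc2a4 measured 53.8 FPKM there, against 28.7 to 31.6 FPKM in the other wild-type libraries. Slc2a9 measured 3.87 FPKM there, against 6.80 to 7.02 FPKM, and Slc35b4 measured 15.6 FPKM, against 9.59 to 10.4 FPKM. The same library had the highest liver marker sum (1498 FPKM), the highest adipocyte sum and the lowest pan-luminal sum. Their part in these values was not tested.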

How the results depend on the processing

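The number of genes called over all genes tested, 6 with 7 libraries, was 1 with a pseudocount of 0.1, 1 without a filter, 28 with quantile normalization (25 higher and 3 lower), 10 with scaling to pan-luminal markers (9 higher and 1 lower), 284 without wild-type replicates 3 and 4 (189 higher and 95 lower), 0 with a term for those 2, and 0 to 31 when 1 library was left out (31 without wild-type replicate 4, 17 without wild-type replicate 3, and 0 or 1 without each of the others). Of the 8 genes, 1 was called, B4galt1, with quantile normalization (1.89, limma adjusted p = 0.0443) and without wild-type replicates 3 and 4, and 0 under each of the other alternatives; leaving out 1 library kept the direction of all 8, with B4galt1 between 1.503 and 1.83. By exact permutation 3 of the 8 reached the smallest p, and 1 did with scaling to pan-luminal markers.

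With the replicate block, 0 genes were called. Same-numbered libraries deviated from their group means with correlations of 0.350, -0.104 and 0.283 for numbers 1, 2 and 3. Socs2-Δs replicates 1 and 3 correlated best with the wild-type library of the same number. Socs2-Δs replicate 2 correlated best with wild-type replicate 4 (0.338). The labels name no pairing, and these correlations cannot decide whether the libraries were paired.

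Directions turned as follows, with no cause tested. With scaling to pan-luminal markers, Hk1 came to -0.074, Galt to -0.23, Slc35a2 to -0.14, Pgm1 to -0.094, Pgm2l1 to -0.28, Pgm5 to -0.49, Uggt1 to -0.32, Slc35c2 to -0.056, Slc35d1 to -0.21, Arrdc4 to -0.30 and Mlxipl to -0.38. Without wild-type replicates 3 and 4, or with a term for them, Ugp2 came to 0.026, Galm to 0.017, Slc35d1 to -0.016, Rpe to 0.019 and Mlxipl to -0.78. Quantile normalization gave -0.044 for Pgm5, -0.0036 for Mlxipl and 0.20 for Txnip, and the replicate block -0.11 for Pgm5 and -0.15 for Mlxipl. Leaving out 1 library gave -0.18 to 0.20 for Pgm5, -0.22 to 0.42 for Mlxipl and -0.30 to 0.021 for Txnip. Lalba was called with quantile normalization (3.25), with scaling to pan-luminal markers (2.68) and without wild-type replicate 4 (2.75).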
